A study of Mus musculus with 8 samples.

Results

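Forkhead (Fox) genes encode transcription factors that share a winged-helix DNA-binding domain. The genes described here are the annotated autosomal protein-coding mouse genes whose symbol is Fox, a letter from a to s and digits, and 41 of the 20665 autosomal protein-coding genes in the RefSeq annotation met that rule. For each of them the percent of the gene body, and of the windows within 2.5 kb of both annotated ends, that lay under deposited H3K27me3 peaks was taken in each library. The last quantity is called end cover below, and the first body cover. The rule reads the symbol, the gene type and the chromosome, and it leaves out the 3 X-linked Fox genes.

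H3K27me3, the trimethylation of histone H3 at lysine 27, was mapped by ChIP-seq (immunoprecipitation of chromatin followed by sequencing) in neural stem cells of female mice, derived from E14.5 embryos of a C57BL/6 129/Castaneus mix. All lines carried 1 deleted (del) allele of the Smchd1 gene, whose chromatin protein takes part in silencing the inactive X chromosome, and all had an Xist deltaA allele on a maternal X of 129 origin and a wild-type Xist allele on a paternal Castaneus X. In the del/del cells the remaining conditional (fl) allele was removed by a retrovirus carrying Cre and a puromycin cassette, with puromycin added after 24 hours and harvest after 7 days. The del/fl control cells were the untransduced part of the established lines. There were 2 H3K27me3 libraries for each genotype, and each had its own whole-cell extract library as the control for peak calling. Because the control cells were neither transduced nor selected, effects of the Smchd1 deletion and of transduction and selection cannot be told apart, and the peak lists do not show whether the allele was deleted.

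Polycomb repressive complex 2 writes H3K27me3, and in stem cells the mark lies broadly over developmental regulators of lineages that the cell does not follow. The forkhead family covers much of that range: FoxA factors open chromatin in endoderm, FoxC, FoxD, FoxF and FoxL factors act in mesoderm, mesenchyme and neural crest, FoxJ1 switches on motile cilia, and FoxO and FoxK factors answer to insulin signalling in most tissues. FoxM1 drives genes of cell division in proliferating cells.

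The sequences just upstream of 4 forkhead genes are shown because these genes differ in how the mark sits at their start while 3 of them are rich in CpG, the dinucleotide that concentrates at Polycomb targets and at active promoters alike. Each line gives the 250 bases before the RefSeq start on GRCm38.p6, the same build as mm10, from 5′ to 3′ on the gene's own strand, with every CpG in capitals. Foxf2, at chr13:31625566-31625815 on the plus strand, held 21 CpG and was covered by peaks over its full length in all 4 libraries. Foxc1, its neighbour at chr13:31806396-31806645 on the plus strand, held 29 CpG and lay outside every peak. Foxi2, at chr7:135410117-135410366 on the plus strand, held 3 CpG and was covered over 66.4% in del/del library 1 and over 100% in the other three libraries. Foxo3, at chr10:42276696-42276945 on the minus strand, held 31 CpG and lay outside every peak.
Foxf2: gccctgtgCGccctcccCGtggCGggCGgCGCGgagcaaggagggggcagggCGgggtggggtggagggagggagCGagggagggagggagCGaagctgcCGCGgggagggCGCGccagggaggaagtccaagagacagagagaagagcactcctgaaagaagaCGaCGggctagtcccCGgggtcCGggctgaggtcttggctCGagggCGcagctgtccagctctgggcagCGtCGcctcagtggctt
Foxc1: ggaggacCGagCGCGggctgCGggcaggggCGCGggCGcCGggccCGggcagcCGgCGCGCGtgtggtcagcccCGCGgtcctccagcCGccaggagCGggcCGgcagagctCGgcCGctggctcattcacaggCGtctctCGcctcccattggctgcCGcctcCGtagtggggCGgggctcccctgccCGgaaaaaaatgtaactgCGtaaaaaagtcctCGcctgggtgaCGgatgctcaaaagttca
Foxi2: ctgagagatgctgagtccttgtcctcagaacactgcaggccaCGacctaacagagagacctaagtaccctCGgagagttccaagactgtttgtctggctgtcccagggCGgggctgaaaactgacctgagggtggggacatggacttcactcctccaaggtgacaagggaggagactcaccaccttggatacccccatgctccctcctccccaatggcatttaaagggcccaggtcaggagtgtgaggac
Foxo3: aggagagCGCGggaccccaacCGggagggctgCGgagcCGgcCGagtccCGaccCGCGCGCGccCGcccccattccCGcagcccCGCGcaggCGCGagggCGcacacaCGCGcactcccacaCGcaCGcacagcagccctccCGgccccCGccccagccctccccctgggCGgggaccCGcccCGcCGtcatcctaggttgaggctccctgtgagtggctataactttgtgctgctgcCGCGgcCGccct

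MACS2 used 14064030 and 12819919 immunoprecipitated tags for del/del, versus 13288499 and 11793402 for del/fl. Peaks covered 1.34% and 1.79% of the autosomes in del/del versus 1.45% and 1.93% in del/fl, so the libraries numbered 2 had more cover than those numbered 1 in both genotypes, from fewer tags. Markers of cell types were counted by a peak at an end in some library. Such a peak was found at 1 of 11 neural stem cell, 6 of 7 neuronal, 1 of 5 microglial and blood and 3 of 6 endothelial and mural markers. It was found at 4 of 6 fibroblast and mesenchyme, 3 of 8 astrocyte and oligodendrocyte, 1 of 3 ependymal and 0 of 3 pluripotency markers. Among autosomal protein-coding genes the share was 25.3%. Of the 11 neural stem cell markers, 9, among them Sox2, Nes and Hes5, had no peak over body or ends. The same held for 67.5% of autosomal protein-coding genes. Microglial and pluripotency markers had few peaks too, so absence of peaks does not single out neural stem cells.

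The genes were sorted into 3 classes of cover. In 16 of the 41 genes the body was covered over its full length in all 4 libraries, 10 genes had no peak over body or ends in any library, and 15 lay between these. The middle class grades into both others: the body of Foxi2 was at 100% in both del/fl libraries and that of Foxi3 in both libraries numbered 2, while Foxj3 and Foxp1 had at most 1.02% and 1.66%. Among all autosomal protein-coding genes, 234 of 20665 (1.13%) were filled in this way, against 39.0% of the forkhead genes, and 67.5% had no peak, against 24.4%. Forkhead genes are short, and short bodies are filled more easily: the longest filled member, Foxa1, spans 7402 bp. Among autosomal protein-coding genes of at most 10 kb, a limit chosen after these lengths were seen and which keeps every filled member, 208 of 7343 (2.83%) were filled, and among the forkhead genes 16 of 25 (64%). The mean end cover over the 41 genes was 47.4% and 48.5% in del/del versus 48.0% and 50.7% in del/fl, where the autosomal protein-coding genes averaged 4.35%, 5.08%, 4.70% and 5.60% in the same order of libraries. The genotypes overlapped in the family mean.

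**Figure D1:**
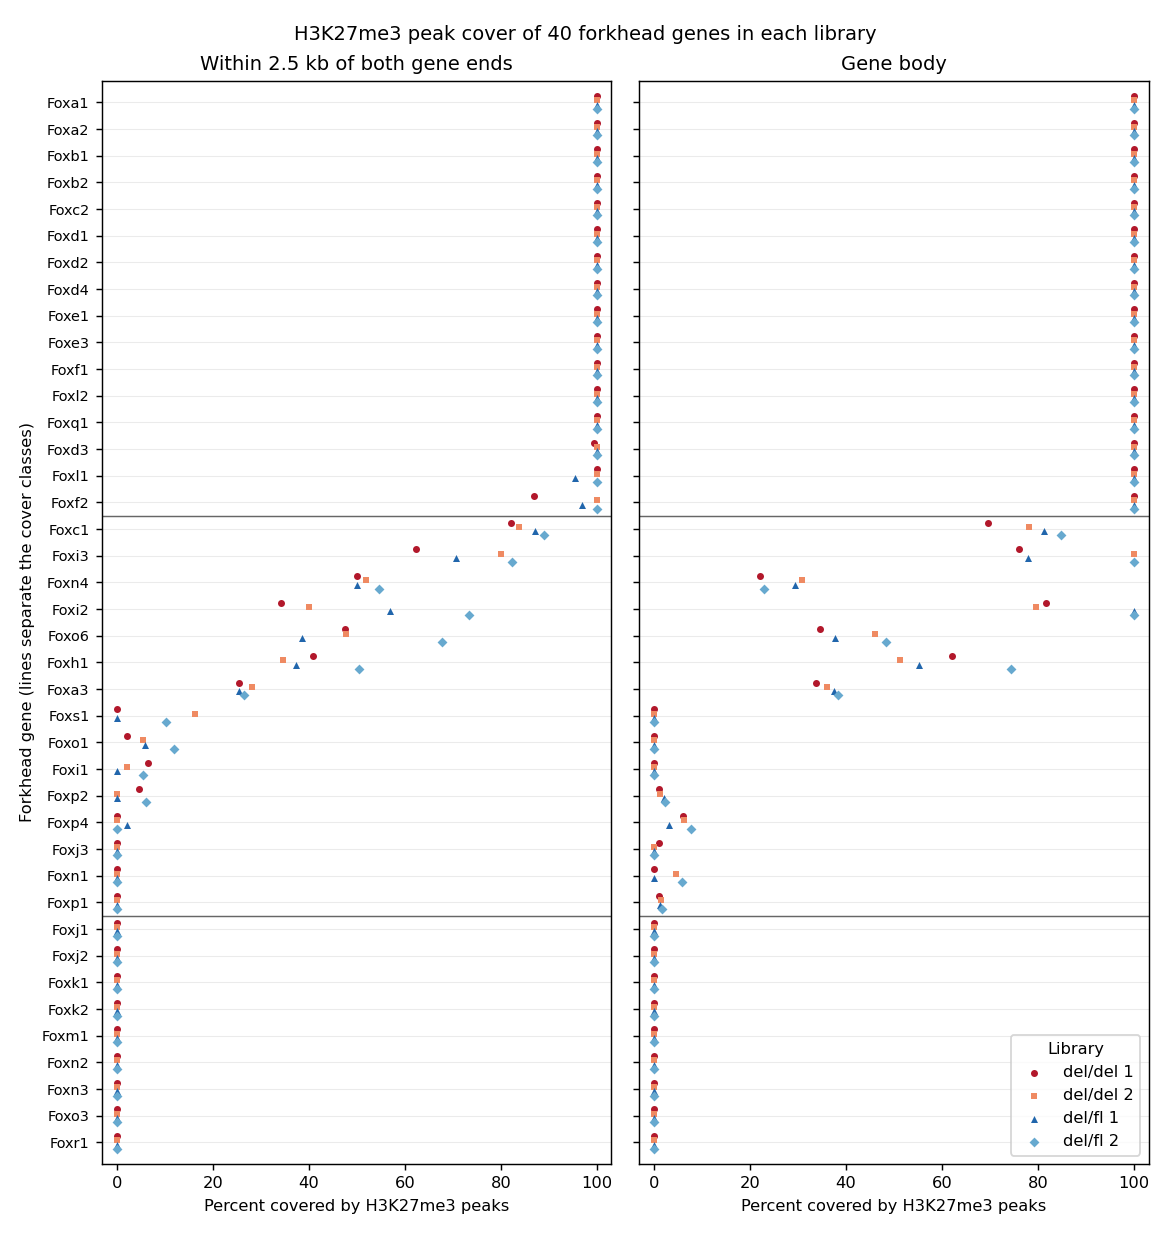
Percent of the windows within 2.5 kb of both gene ends (left) and of the gene body (right) under H3K27me3 peaks, one row for each of 40 of the 41 forkhead genes and one point for each library, with del/del in reds and del/fl in blues. The 16 genes at the top sit at 100% of the body in all 4 libraries, the 9 drawn at the bottom at 0%, and most of the spread between libraries is in the 15 genes in between, widest between genotypes at Foxi2.

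The filled genes were Foxa1, Foxa2, Foxb1, Foxb2, Foxc2, Foxd1, Foxd2, Foxd3, Foxd4, Foxe1, Foxe3, Foxf1, Foxf2, Foxl1, Foxl2 and Foxq1. These are regulators of endoderm and floor plate (Foxa1, Foxa2), diencephalon (Foxb1), neural crest (Foxd3), kidney stroma (Foxd1), lens (Foxe3), thyroid (Foxe1), lung and gut mesenchyme (Foxf1, Foxl1), lymphatic vessels (Foxc2) and ovarian granulosa cells (Foxl2). End cover was 100% in every library for 13 of the 16, including Foxa1, Foxa2, Foxb1, Foxc2, Foxf1, Foxl2 and Foxq1. The other three missed it in single libraries. Foxd3 had 99.3% in del/del library 1, Foxl1 had 95.5% in del/fl library 1, and Foxf2 had 86.9% in del/del library 1 and 96.8% in del/fl library 1. All of the incomplete values were in libraries numbered 1, the ones with less autosomal cover.

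The members were also grouped by developmental role, in broad lists that do not suit every gene in them. The mesoderm and mesenchyme list held the most filled members, 8 of 10, and none of the 10 was without a peak, but one of the 8 is Foxq1, known for hair and gut epithelium. The endoderm and floor plate group had 2 of 3 filled, with Foxa3 the exception. Neural and neural crest regulators were split, with 4 of 10 filled and 2 without a peak. The list for placodes and for ear, eye, thyroid and thymus epithelium had 2 of 8 filled and 1 without a peak. It also holds Foxh1, a SMAD partner in Nodal signalling, and Foxr1, which is the member without a peak. Of the members listed as metabolic or ubiquitous, 0 of 10 were filled and 7 had no peak. Their median length was 55216 bp, against 2766 bp in the mesoderm and mesenchyme list. The shortest of them, Foxm1 at 12893 bp, is longer than the longest filled member, Foxa1 at 7402 bp. These lists therefore differ in gene length as well as in role, and the part of length was not tested. Foxo6, expressed in the forebrain, is in the metabolic or ubiquitous list and had 38.6% to 67.7% of end cover. The list's mean end cover was 4.97% and 5.31% in del/del versus 4.44% and 7.96% in del/fl. The mean of the mesoderm group was 86.9% and 90.0% in del/del versus 87.9% and 89.9% in del/fl, far above the metabolic group in each library, while the genotypes overlapped within both groups.

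Members without a peak included regulators of cilia and of cell division. Foxj1 and Foxm1 had 0% of end and body cover in all 4 libraries, as did Foxj2, Foxk1, Foxk2, Foxn2, Foxn3, Foxo3 and Foxr1. For 8 of the 10 genes without a peak the nearest one lay more than 19 kb away in every library, with 45.3 to 45.6 kb for Foxj1, 53.3 to 61.9 kb for Foxm1 and 270 to 276 kb for Foxn2. Foxr1 had one at 11.6 to 27.1 kb. Foxo3, whose product helps to maintain the neural stem cell pool, had a short peak 4.70 kb away in del/del library 2 and one 3.21 kb away in del/fl library 1, and in the other libraries the nearest peak lay 585 kb (del/del library 1) and 584 kb (del/fl library 2) away. A peak list gives no lower bound on the mark, so these genes had no called peak at this depth, which is not the same as no H3K27me3.

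**Figure D2:**
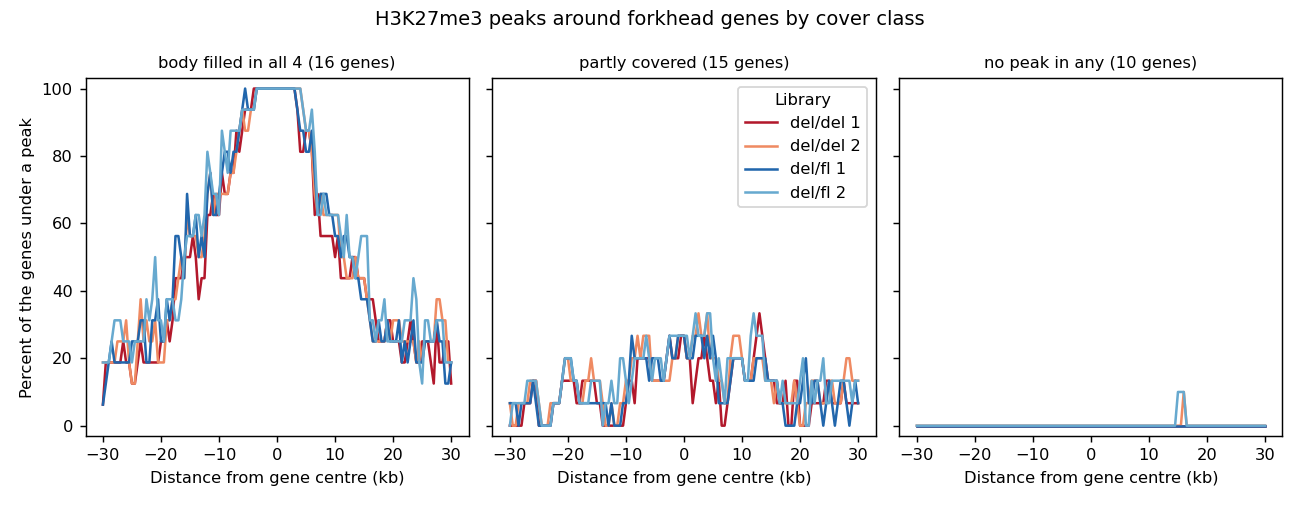
Percent of the forkhead genes of each cover class under a peak, by distance from the gene centre in kb, with one line for each library. The filled genes reach 100% at the centre and fall on both sides, the partly covered genes stay low throughout, and the genes without a peak lie at 0 except for a short stretch near 15 kb, with the 4 libraries close together.

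The peaks over the filled genes were long and among the strongest of each list. Foxa2 lay in the longest, with 46.6 and 45.9 kb in del/del versus 43.6 and 45.1 kb in del/fl, although the annotated gene spans only 4093 bp. Both del/fl values were lower, by little against the length. Foxa1 had 35.1 and 38.2 kb against 31.8 and 33.0 kb. Foxq1, a regulator of hair and gut epithelium, had the shortest in del/del library 1, with 9.78 kb. Fold enrichment, the authors' ratio of pileup to local background for a peak, ran from 7.58 at Foxq1 to 15.1 at Foxf1, and each of these peaks had a higher fold than at least 98.2% of the autosomal peaks of its own list. Most partly covered members had lower folds, with a median of their longest peaks between 4.05 and 4.59. The folds of Foxn4, at 7.71 to 9.23, and of Foxi3, at 8.41 to 8.99, overlapped those of the weakest filled genes.

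**Figure D3:**
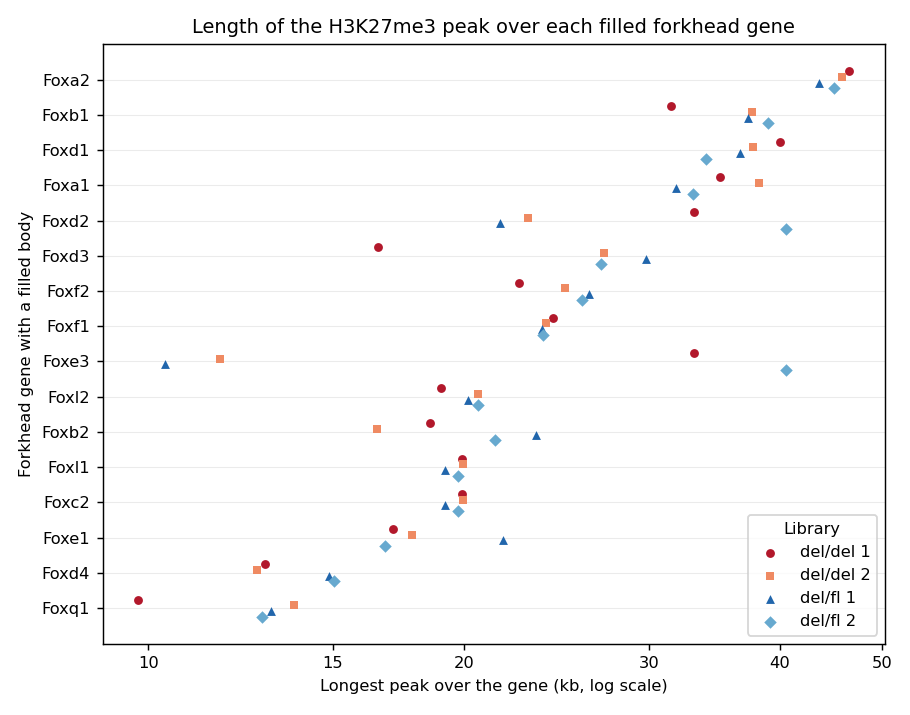
Length in kb, on a log axis, of the longest peak over each of the 16 filled forkhead genes, one point for each library. Foxa2 lies furthest right at 43.6 to 46.6 kb, Foxb2 is shorter in both del/del libraries, and Foxd2 and Foxe3 jump between libraries where their peaks are joined into one.

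Peak lengths moved in both directions between the genotypes. Of the 16 filled genes, 6 had a longer peak in both del/del libraries than in either del/fl library (Foxa1, Foxa2, Foxc2, Foxd1, Foxf1 and Foxl1), 3 a shorter one (Foxb2, Foxd4 and Foxf2), and 7 overlapped. Foxc2 and Foxl1 share a single peak, so the 6 rest on 5 peaks. Among the 234 autosomal protein-coding genes with a filled body, 15% were longer and 24.8% shorter by the same measure. Over the 27 forkhead genes with a peak in all 4 libraries, 7 were longer and 6 shorter, against 8.92% and 27.1% of 3239 such genes. These counts were not tested, and the number of filled genes is small. The sizes were small for most: Foxf1 had 24.3 and 23.9 kb against 23.7 and 23.8 kb. The widest difference among these 9 was at Foxb2, expressed in the developing diencephalon, with 18.5 and 16.5 kb in del/del versus 23.4 and 21.4 kb in del/fl. Foxd3 shows what a single library can do, with 16.5 and 27.2 kb in del/del versus 29.8 and 27 kb in del/fl, where only del/del library 1 is short. The peaks over the filled genes summed to 346.9 and 371.6 kb in del/del versus 373.7 and 374.6 kb in del/fl, over 14 or 15 peaks.

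Among neighbouring members, Foxc2 and Foxl1 shared a peak in every library, and Foxd2 and Foxe3 in some. The other neighbours described here lay under separate peaks. On chromosome 8, Foxf1, Foxc2 and Foxl1 lie within 46.3 kb, and Foxc2 and Foxl1 sat under a single peak of 19.2 to 19.9 kb in every library that also covered all of the 8.79 kb between them. Peaks covered 55.0% and 56.3% of the whole span in del/del versus 57.0% and 56.2% in del/fl, so the genotypes overlapped. On chromosome 13, Foxq1, Foxf2 and Foxc1 spread over 252 kb, with 15.9% and 19.4% covered in del/del versus 19.1% and 20.8% in del/fl. On chromosome 4, Foxd2 and Foxe3 lay under a single peak of 33.1 kb in del/del library 1 and of 40.5 kb in del/fl library 2, and under separate peaks in the other libraries. That break fell in 1 library of each genotype, and 90.9% and 93.5% of the 15.5 kb between the genes was still covered where it occurred.

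**Figure D4:**
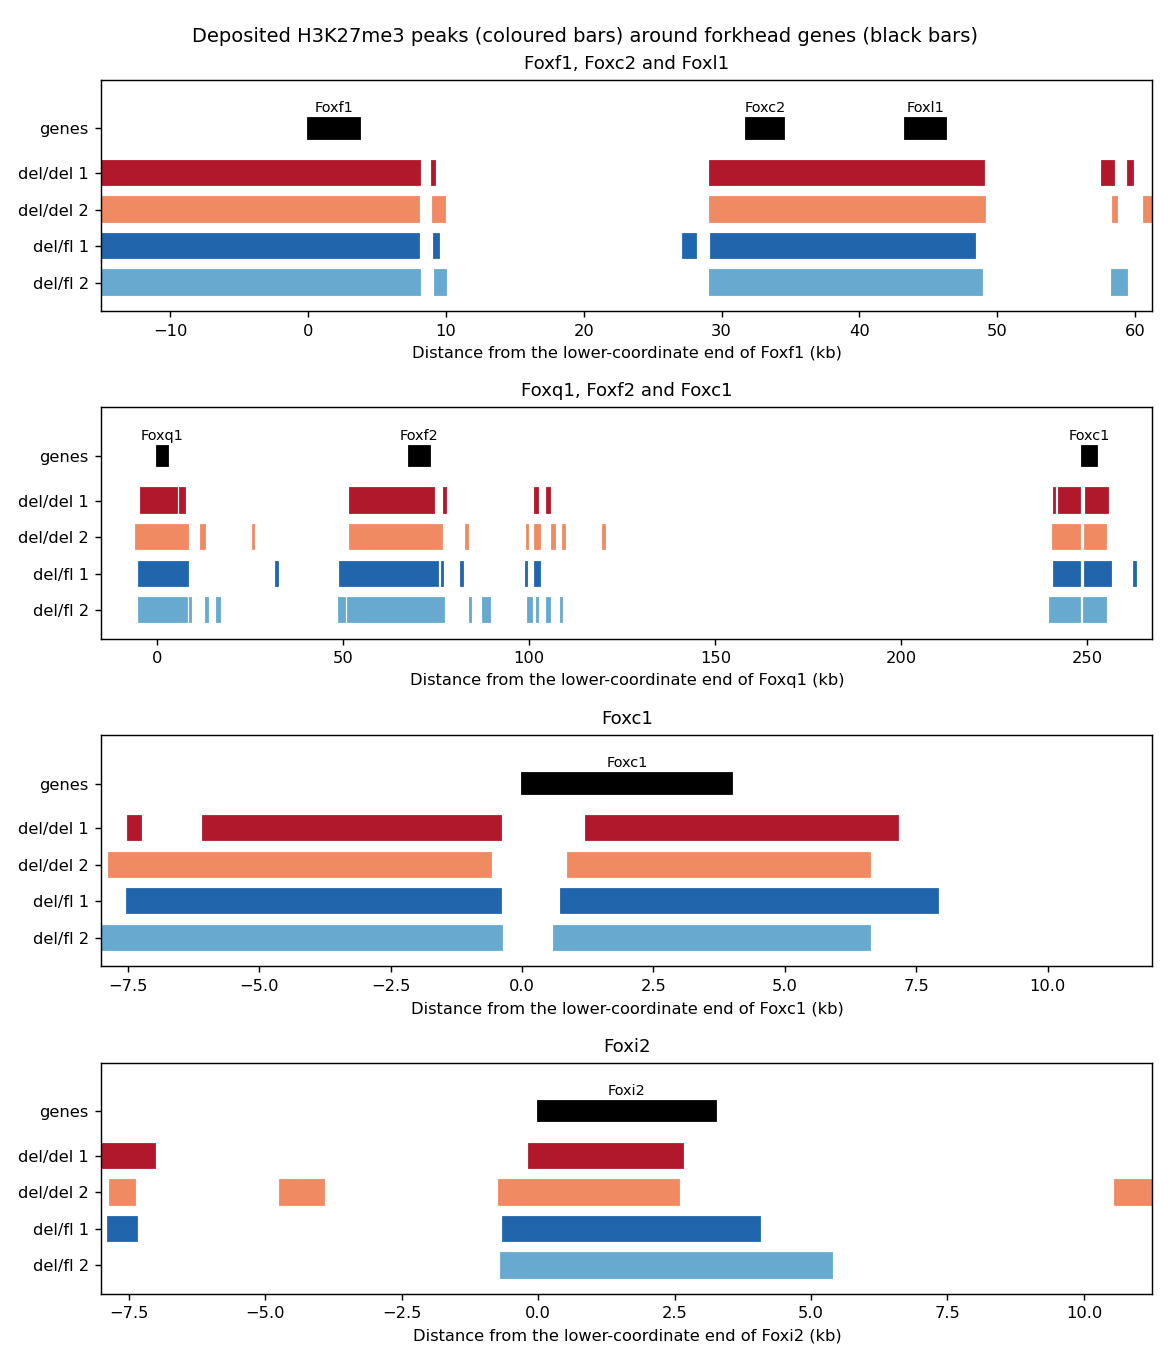
Deposited peaks (bars, one row for each library) and genes (black) around Foxf1, Foxc2 and Foxl1, around Foxq1, Foxf2 and Foxc1, and at closer range around Foxc1 and Foxi2, in kb from the lower-coordinate end of the first gene. Foxc2 and Foxl1 lie under a single bar in all 4 libraries, the bars at Foxc1 leave its start free by 992 to 1617 bp, and the bar over Foxi2 ends inside the gene only in the del/del rows.

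No forkhead gene passed the threshold in the comparison of genotypes. limma, fitted to all 9136 genes with an end peak in some library, called 0 genes at an adjusted p under 0.05, which is 0% of the genes tested and 0 of the 28 forkhead genes among them. For body cover it called 0 of 9336 genes (0%), again with 0 of 28 forkhead genes. At an unadjusted p under 0.05, 2 forkhead genes were lower in del/del at the ends (Foxi2 and Foxc1) and 2 in the body (Foxi2 and Foxp2), where 4.18% and 3.26% of all genes tested, X-linked ones included, were lower at that level. Among the 5229 autosomal protein-coding genes tested at the ends, 261 were lower at that level. The median difference in end cover over the 28 was 0 percentage points, with 4 genes higher in del/del, 11 lower and 13 equal, and the 13 equal ones were all at 100% in every library, where this measure cannot show a difference in either direction. Over the 5229 autosomal protein-coding genes tested the median was -0.98. No forkhead gene gained or lost its end peaks in the sense of having one in both libraries of a genotype and in neither of the other. Calls of forkhead genes appeared only when a library was left out, and many other genes were called in the same fits. Without del/fl library 1, Foxo6 was called with a difference of -20.1 points (limma adjusted p = 0.0169), in a fit that called 17.6% of 8835 genes, and it was 8.93 points in the other direction without del/fl library 2. Foxl1 was called without del/fl library 2 with 4.51 points (limma adjusted p = 9.65e-10), where the remaining del/fl library is the one at 95.5% and both del/del libraries are at 100%. That fit called 3.65% of 8128 genes. The body of Foxi2 was called without del/del library 1, with -20.5 points (limma adjusted p = 0.00335), in a fit that called 12.7% of 9057 genes. In each of the 3 fits a genotype holds a single library, and its spread is assumed to be that of the other. For the Foxi2 body that other genotype is del/fl, where both libraries are at the upper limit of 100%.

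Separation of the genotypes without overlap, both del/del libraries on one side of both del/fl libraries, was seen at the ends of 3 forkhead genes (Foxi2, Foxc1 and Foxo1), all lower in del/del, and 0 were higher. Among autosomal protein-coding genes with an end peak, 17% were lower and 6.16% higher in this sense. In the body, 4 were lower (Foxa3, Foxc1, Foxi2 and Foxp2) and 0 higher, against 15.9% and 6.79%. With 2 libraries in each genotype an exact permutation test cannot go below p = 0.33. Of the 28 forkhead genes with a peak, 13 at the ends and 16 in the body were at 100% in every library and could not separate, which leaves 3 lower of 15 at the ends and 4 lower of 12 in the body. With such genes left out of the background too, 17.5% were lower and 6.35% higher at the ends, and 16.7% and 7.1% in the body. The differences from these backgrounds were not tested.

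Foxi2, a regulator in the cranial and otic placode ectoderm, had the largest difference at gene ends. Its end cover was 34.2% and 39.9% in del/del versus 56.9% and 73.3% in del/fl, so both del/del libraries were lower. The means were 37.1% ± 4.03 (SD, n = 2) and 65.1% ± 11.6 (SD, n = 2), a difference of -28.0 points (SE 7.63, limma adjusted p = 0.478). Body cover was 81.7% and 79.5% in del/del and 100% in both del/fl libraries, a difference of -19.4 points (SE 1.26, limma adjusted p = 0.164). Both del/fl values are at the upper limit of this measure, so the SE does not hold the spread of where the peak ends. The limma adjusted p was 0.748 with autosomes only and 0.446 with the replicate block. The peak that makes these values began between -708 and -166 bp from the RefSeq start in all 4 libraries. It ended 2660 and 2589 bp after it in del/del, within the 3256-bp gene, and 4066 and 5381 bp after it in del/fl, beyond the gene. Fold enrichment of the peak, the authors' value, was 4.29, 4.55, 4.27 and 4.73 in the order del/del 1, del/del 2, del/fl 1, del/fl 2, and its -log10 q stayed below 5 in every library, so it was a weak peak by comparison with the filled genes. Foxi2 had no peak in any list at the stricter threshold of -log10 q of at least 5.

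Foxc1, a regulator of mesenchyme in the eye, the heart and the meninges, had a domain with its start left free. End cover was 82.0% and 83.7% in del/del versus 87.2% and 89.0% in del/fl, with no overlap. The difference was -5.20 points (SE 1.35, limma adjusted p = 0.448). Body cover was 69.6% and 78.0% against 81.2% and 84.8%. The uncovered gap ran over the RefSeq start in every library, from position -403 to 1213 bp relative to it in del/del library 1 and from -587 to 876 bp in del/del library 2. In del/fl it ran from -405 to 748 bp and from -385 to 606 bp. The gap was therefore 1617 and 1464 bp long in del/del and 1154 and 992 bp in del/fl, longer in both del/del libraries, with most of the difference on the side of the gene body. There were 157 autosomal protein-coding genes with at least 80% end cover in all 4 libraries and a promoter in the RefSeq table. Of these, 2 had the 250 bases before a start free in all 4, and Foxc1 was one of them. That cover limit was chosen after the value of Foxc1 was seen. The end windows also hold the start, so genes with a free start pass the limit less easily. The count is therefore no independent measure of how rare a free start is. After division by each library's autosomal cover the sign of the difference at Foxc1 ends turned, to 1.60. The divisor was smaller in del/del than in the del/fl library of the same number, so the division alone raises the difference at highly covered genes. The gap was closed by merging peaks within 3 kb, which made both differences at Foxc1 0. With stricter peaks they were -33.8 points at the ends (limma adjusted p = 0.794) and -42.4 in the body (limma adjusted p = 0.806). There the peak on the side of the gene body was kept only in del/fl library 2, where its -log10 q was 5.49. It was 4.07 and 3.22 in del/del and 3.84 in del/fl library 1, so both of these differences rest on a single library.

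Foxo1, a target of insulin signalling and the other gene with non-overlapping ends, had little cover. Its end cover was 2.20% and 5.49% in del/del versus 5.81% and 12.0% in del/fl, and the body had no peak. The difference was -5.04 points (SE 3.16, limma adjusted p = 0.624). The peaks behind these values were short, from 220 to 1203 bp, and lay at different places upstream of the start: relative to it their nearest edge was at -554 bp in del/del library 1, at -1079 bp in del/del library 2, and at -1254 and -1305 bp in del/fl.

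**Figure D5:**
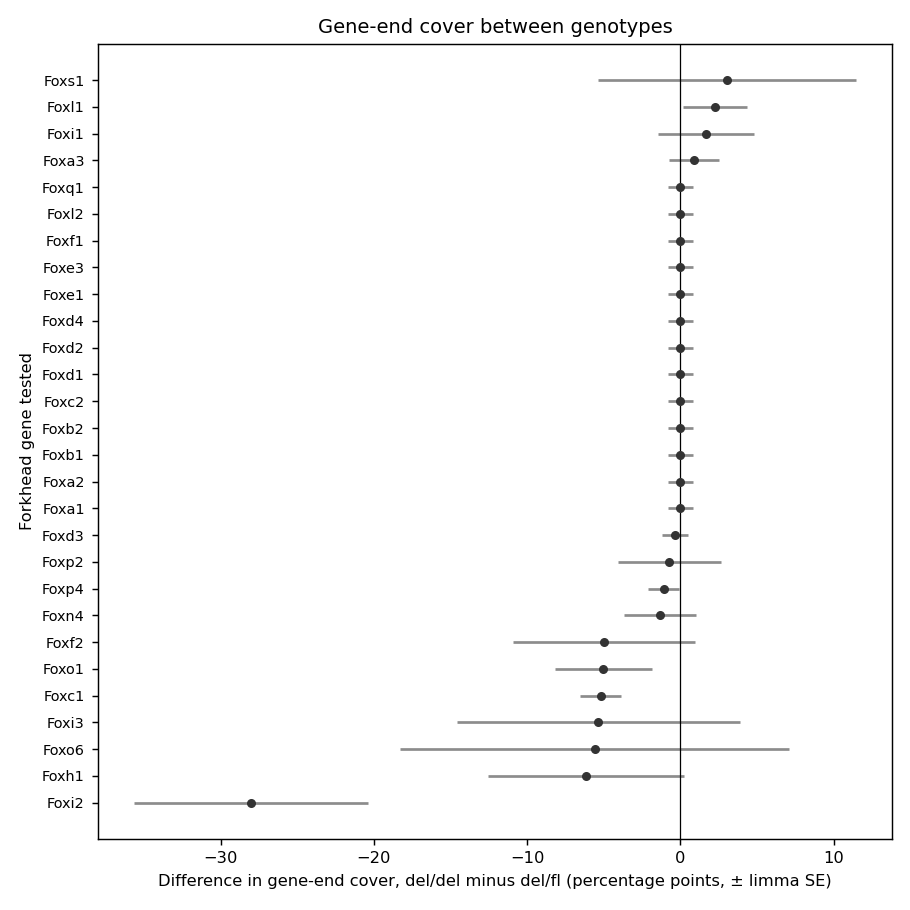
Difference in end cover between genotypes (del/del minus del/fl, percentage points, mean of 2 libraries each) with the limma standard error for the 28 forkhead genes tested. Foxi2 lies furthest from 0 at -28.0, Foxc1 and Foxo1 lie near -5, the 13 genes that are at 100% in every library lie at 0, and none of the 28 passed the adjusted threshold.

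The remaining FoxA gene, Foxa3, expressed in liver and gut, was unlike its relatives. Its end cover was 25.5% and 28.2% in del/del versus 25.5% and 26.5% in del/fl, and its body cover 33.9% and 36.0% against 37.5% and 38.4%. The ends overlapped and the bodies did not. A single peak of 3521 to 4082 bp ran from its start into the gene, with a fold of 4.30 to 4.87, where Foxa1 and Foxa2 had folds of 9.98 to 11.7.

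FoxP genes, known for roles in neurons and, for Foxp2, in vocal learning, had little or no end cover and, in the body, peaks over a small part of the gene. Foxp2 had end cover of 4.61% and 0% in del/del versus 0% and 6.07% in del/fl, which overlap. Its body cover was 1.06% and 1.36% against 2.1% and 2.27%, a difference of -0.97 points (SE 0.29, limma adjusted p = 0.507). The longest peak in that 540629-bp gene lay toward its higher-coordinate end, and was 3.85 and 3.73 kb long in del/del versus 8.65 and 8.10 kb in del/fl. Shorter separate peaks lay beside it in both genotypes. Foxp1 had no end peak in any library and a body cover of 1.00% and 1.58% in del/del versus 1.27% and 1.66% in del/fl, mostly from a peak of 4.41 to 5.51 kb that began 30334 to 31214 bp inside its 5′ end. Foxp4 had an end peak only in del/fl library 1, with 2.21%, and its body cover was 6.18% and 6.33% in del/del versus 3.28% and 7.67% in del/fl. The genotypes overlapped at Foxp1 and Foxp4.

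Other partly covered genes varied between libraries more than between genotypes. Foxo6, a FoxO member of the forebrain, had end cover of 47.5% and 47.7% in del/del versus 38.6% and 67.7% in del/fl. Foxi3, a placode regulator, had 62.3% and 79.9% against 70.7% and 82.2%, and Foxh1, a partner of SMAD proteins in Nodal signalling, 40.8% and 34.7% against 37.3% and 50.5%. Foxn4, which specifies interneurons and retinal cells, had 50% and 51.9% against 50% and 54.5%, since 1 of its windows was full in every library. Foxn1, the regulator of thymus epithelium, had no end peak and a body cover of 0% and 4.62% against 0% and 5.81%, so its only peaks were in the libraries numbered 2. Foxs1 followed the same split, with 0% and 16.3% against 0% and 10.2% at its ends. Foxi1 had 6.61% and 2.20% against 0% and 5.45%, and Foxj3 only a body peak in del/del library 1.

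Windows reaching 25 kb beyond each gene were added after the data were seen, since 13 members were at the upper limit of end cover. In that window 34 forkhead genes had a peak, 13 were lower in both del/del libraries and 4 higher, while 18.1% and 6.23% of 12579 autosomal protein-coding genes were. limma called 0 of 20162 genes (0%), and 1 forkhead gene, Foxb2, was lower at an unadjusted p under 0.05, as were 1.29% of all genes tested, X-linked ones included. At Foxb2 the cover was 39.9% and 40.7% in del/del versus 54.1% and 56.9% in del/fl, a difference of -15.2 points (SE 4.31, limma adjusted p = 0.469). Foxe1 had 35.8% and 41.9% against 48.7% and 48.9%. Foxa1, whose longest peak was longer in both del/del libraries, was among the 13 lower here, with 80.6% and 79.3% against 82.1% and 88.0%. Of the other genes with a longer peak in del/del, Foxd1, Foxf1 and Foxl1 were higher here too, and Foxa2 and Foxc2 overlapped. Foxi1 was among the 4 higher, with 9.60% and 12.6% against 4.17% and 6.93%. The 4 higher genes were Foxd1, Foxf1, Foxi1 and Foxl1, and Foxf1 and Foxl1 are neighbours whose windows overlap, so they are not independent. The share of lower genes, 13 of 34, was above its background, and that difference was not tested. The background held every gene with a peak in some library, and a gene with a peak in 1 library only cannot separate. Of the 34 forkhead genes 29 had a peak in all 4 libraries. The background share among such genes was not computed for this window, so the comparison is not like for like.

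Promoter sequences were available for 26 of the 41 genes, with 30 starts. All 12 starts of filled genes were covered over the 250 bases before them in all 4 libraries, which their full end and body cover nearly fixes, and they held 6 to 22 CpG. Of 13 starts of partly covered genes, 2 were covered and 9 free in all 4 libraries, with a median of 18 CpG. All 5 starts of genes without a peak were free by definition of that class, with a median of 31 CpG. Across 20085 starts of autosomal protein-coding genes the median was 10 CpG, 4.47% were covered in all 4 libraries and 90.8% were free in all 4. The forkhead core sequence GTAAACA, searched on both strands, was found before 1 of the 30 forkhead starts, that of Foxa1, and before 2.64% of all these starts.

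Other transcription factor families held smaller shares of filled genes, but their genes are longer in the median, with 5171 bp (Sox), 14191 bp (T-box), 55049 bp (Pax) and 30876 bp (Gata) against 4461 bp. Of 18 Sox genes 3 were filled and 9 had no peak, of 15 T-box genes 2 were filled and 2 had none, of 9 Pax genes 1 was filled, and of 5 Gata genes 1 was filled. All 9 Pax and all 5 Gata genes had an end peak in all 4 libraries, as did 13 of 15 T-box and 24 of 41 forkhead genes. The mean end cover of the forkhead genes was above that of the Sox genes, at 22.8% to 24.3%, and in each library below that of the T-box genes, at 50.9% to 55.8%, the Pax genes, at 55.9% to 59.7%, and the Gata genes, at 61.1% to 70.4%. These differences between families were not tested, and the families were not compared at like gene length.

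Genes that act with forkhead factors were described by the same measures. Of 15 genes linked to FoxA in endoderm, 11 had an end peak and 5 were filled, among them Sox17, Pdx1 and Cdx2. Of 20 genes of the FoxO pathway, 2 had an end peak (Igf1r and Bcl2l11) and 17 had no peak, among them Akt1 and Insr. Of 14 ciliogenesis genes linked to FoxJ1, 11 had an end peak and 0 were filled. Mcidas, which acts upstream of Foxj1, had 72.1% and 91.7% in del/del versus 83.0% and 78.2% in del/fl, while Foxj1 itself had none. limma called 0 genes in each of these lists, in either direction, with 11, 2 and 11 genes tested at the ends in the order given. At an unadjusted p under 0.05 it found 1 lower in del/del, the ciliogenesis gene Ccno. Over all genes tested at the ends, X-linked ones included, 4.18% were lower at that level.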

How the data were processed

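The 4 H3K27me3 libraries were analysed from their deposited peak lists, and the 4 whole-cell extract libraries entered only as the peak caller's controls. The submitters' processing notes name bcl2fastq, Bowtie 0.12.9 and the mm10 build. Peaks were called for each library with MACS2 2.1.0.20140616 in broad mode, per the file headers, at a q-value threshold of 0.05 (some peaks in the files have q up to 0.0983), keeping 1 tag at a position and taking the local background from 1000 and 10000 bp. Per the file headers, the pileup column holds a signal, the number of stacked tags. The fold enrichment is the authors' ratio of pileup to local background. The p-value and q-value of a peak are deposited as −log10. Peak start, end and length are the authors' coordinates in bp.

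From these, the percent of each window under peaks was computed with Python 3.11.15, numpy 2.4.6 and pandas 2.3.3, with overlapping end windows joined. Genotypes were compared by limma 3.58.1 (R 4.3.3), using a variance trend and robust fitting over all protein-coding and lncRNA genes with a peak in any library, and Benjamini-Hochberg adjustment. Figures were drawn with matplotlib 3.10.9. Gene coordinates and promoter sequences came from RefSeq tables for GRCm38.p6. Strand was known only for the 26 genes with a promoter entry, so both ends were used. Separate embryos are not stated for the libraries, so a p-value reflects only how these samples spread, which may be technical, and which libraries share a line is not stated.

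The genes, the role and partner lists and the alternatives were chosen with earlier results of these data known. Values in every library were given for members whose genotypes do not overlap at gene ends, members gained, lost or called, and a list of 20 members named whatever their values; others were named beside counts after their values were seen. Alternatives were a stricter peak threshold, equally long lists, omission of each library in turn, a replicate block, other windows, merged peaks, division by autosomal cover and other filters and fits. The code was tested on simulated data. Allele-specific signal was not analysed here. One member and some list genes are counted but not reported by name here.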

Additional observations from a re-analysis of the deposited data

How the results depend on the processing

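The counts of genes in each cover class rest on called peaks, so a mark too weak to be called at 11793402 to 14064030 tags is not seen, and with 2 libraries in each genotype only large differences could pass. The fit over all annotated genes without a filter could not be fitted, since most of the variances are 0. The number of members with a peak in all 4 libraries, or in all remaining ones when a library was left out, was 24 in the main run. It was 16 with windows around the start only, which can hold only the 26 members with a promoter entry. With stricter peaks it was 19, with 25 kb to each side 29, and in the other alternatives 23 to 26. The count of members that do not overlap at the ends, 3, was 1 with stricter peaks, 7 with ends of 5 kb, 17 with 25 kb to each side and 6 to 8 when a library was left out, where fewer libraries have to separate. Lower and higher members were 5 and 2 with ends of 5 kb and 13 and 4 with 25 kb to each side. They were 8 and 0 without del/fl library 1, but 4 and 4 without del/fl library 2. Without del/del library 1 they were 4 and 2, and without del/del library 2 they were 6 and 1. The share over all genes was computed only for the main windows and 25 kb, so the other counts have no background. The count of gained and lost members, 0, was 1 with lists of equal length and 0 to 2 when a library was left out. The difference in the family mean, -1.37 points, ran from -2.72 to -0.015 when a library was left out. It was 2.64 and the median difference 7.88 after division by autosomal cover, and the median was -1.28 with 25 kb to each side. The number of forkhead genes called, 0, ranged from 0 to 1 when a library was left out, at ends and in bodies, and calls over all genes in such fits ranged from 0 up to 1065 higher at the ends without del/del library 1 and 1295 lower without del/fl library 1. No forkhead gene was among the 64 higher and 47 lower genes called with stricter peaks, or the 202 and 20 called after division by autosomal cover, at the ends. The labels' replicate numbers pair the libraries only by name, and the deviations of same-numbered libraries correlated at r = 0.104 over gene ends and 0.0955 over bodies. With the replicate block, 0 forkhead genes were called at ends and 0 in bodies. Of the values for single genes, 306 stayed on their side of the threshold without turning sign, of which 293 kept their sign and 13 were 0 within rounding, 3 passed it (given in the report) and 45 turned sign, and the cause was not tested. With stricter peaks the turned end differences were -12.7 at Foxa3 and 2.22 at Foxi3, and in the body -6.28 at Foxn4. With lists of equal length they were 0.96 at Foxn4 ends and 0.52 in the Foxo6 body. After division by autosomal cover they were 1.60 at Foxc1, 7.67 at Foxd3, 1.87 at Foxf2, 3.01 at Foxn4, 0.35 at Foxo6 and 0.25 at Foxp2, and in the body 5.84 at Foxi3 and 0.42 at Foxo6. With ends of 1 kb Foxo1 was at 2.75, and with ends of 5 kb Foxa3 was at -1.10 and Foxp4 at 0.54. With 25 kb to each side they were -0.37 at Foxa3, 0.68 at Foxn4, 0.79 at Foxp4 and -5.78 at Foxs1. When a library was left out, end differences ran from -11.6 to 1.58 at Foxf2, -1.05 to 4.40 at Foxi1, -14.2 to 3.47 at Foxi3, -0.49 to 2.26 at Foxa3, -3.76 to 2.30 at Foxp2, -5.09 to 11.2 at Foxs1, -12.7 to 0.40 at Foxh1, -3.58 to 0.96 at Foxn4 and -20.1 to 8.93 at Foxo6. Body differences ran from -12.9 to 11 at Foxi3, -3.50 to 2.31 at Foxn1, -8.49 to 3.00 at Foxo6, -0.46 to 0.12 at Foxp1, -4.11 to 4.63 at Foxn4, -1.42 to 2.98 at Foxp4 and -17.6 to 1.44 at Foxh1. A genotype left with 1 library is assumed in these fits to vary like the other.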

Other observations

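The 3 X-linked Fox genes, which the autosomal rule leaves out, were higher in both del/del libraries than in either del/fl library. Foxo4, a FoxO member, had end cover of 86.7% and 100% in del/del versus 41.3% and 42.9% in del/fl (limma adjusted p = 0.275). Foxp3, the regulator of regulatory T cells, had 61.2% and 78.7% against 0% and 21.7% (limma adjusted p = 0.369). Foxr2 had 91.9% and 92.0% against 80.4% and 74.4% (limma adjusted p = 0.339). The same separation held for 553 of 831 X-linked protein-coding genes with an end peak (66.5%), so it is common on this chromosome. None of the 3 passed the threshold, and a difference between X-linked and autosomal members was not tested.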
